A study of Mus musculus with 2 samples.

Results

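Translation initiation factors are the proteins that bring the ribosome, the initiator tRNA and an mRNA together at a start codon. Their genes were taken by name, as every gene whose only symbol in the array's annotation begins with Eif and a digit from 1 to 6, without the sex-linked pair Eif2s3x and Eif2s3y. This gave 45 of the 18194 genes named on the array. They were compared between the lens of mice at postnatal day 60 (P60), a young adult age, and the lens at postnatal day 7 (P7), when the lens is growing fast. Both groups were wild-type mice of the strain labelled C57/BL6, with no treatment given. Each age was 1 pool of lenses on 1 Affymetrix array, so no value has a replicate, no test between the ages was possible, and differences are given by size. How many animals went into a pool, and of which sex, is not given in these sources.

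In cap-dependent initiation, eIF4E binds the cap at the 5′ end of an mRNA, the scaffold eIF4G joins it to the helicase eIF4A, and the resulting complex, eIF4F, recruits the small ribosomal subunit. That subunit carries eIF1, eIF1A, eIF3, eIF5 and the initiator tRNA delivered by eIF2. 4E-binding proteins hold eIF4E back when growth signalling through mTORC1 is low, and kinases that phosphorylate the alpha subunit of eIF2 lower initiation under stress by blocking its exchange factor, eIF2B. In the lens, new fibre cells make very large amounts of crystallin before they lose their nuclei and organelles, whereas the anterior epithelium goes on dividing slowly in the adult.

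The values are MAS5 signal intensities, each from a probe set, which is a group of short probes for 1 transcript. A gene was represented by its brightest probe set, the one whose log2 intensity averaged highest over the pair of arrays. A gene counted as measured when this probe set exceeded a floor of 103.9, set at the median over every value of the pair, on at least 1 array. Of the 45 genes 44 were measured, and all 44 exceeded the floor on both arrays, so their ratios are not bounds. Eif4a3, a helicase of the exon junction complex, had intensities of 44.9 in P60 lens and 32.9 in P7 lens on its only probe set and is given no ratio. As a guide to measurement error, log2 ratios of different probe sets for 1 gene had a pooled SD of 0.58 over 4239 genes and of 0.62 over the 29 initiation factor genes that could be used. This SD covers probe sets on the same pair of arrays and leaves out animals, pools and hybridisations.

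None of the 44 measured genes was 2-fold higher in P60 lens, and 7 (15.9%) were at least 2-fold lower. Among all 13029 measured genes the share that was 2-fold or more higher was 11.5%, and the share that was 2-fold or more lower was 9.44%. Among the 10599 genes above the floor on both arrays these shares were 11.8% and 8.38%. The 7 lower genes were Eif4e, Eif5a, Eif4a1, Eif5a2, Eif1ax, Eif2s2 and Eif1a, whose differences ran from 5.74-fold for Eif4e to 2.03-fold for Eif1a. The gene just short of 2-fold was Eif2ak2, 1.89-fold lower. The highest ratio was that of Eif3b, 1.85-fold higher. The median log2 ratio of P60 over P7 was -0.21 and the mean -0.26, against a median of 0.02 for all measured genes. Ratios were below 0 for 30 of the 44 genes (68.2%), compared with 48.8% of all measured genes and 46.0% of those above the floor on both arrays. The plot of the distribution shows this offset and the separate position of Eif4e.

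**Figure D1:**
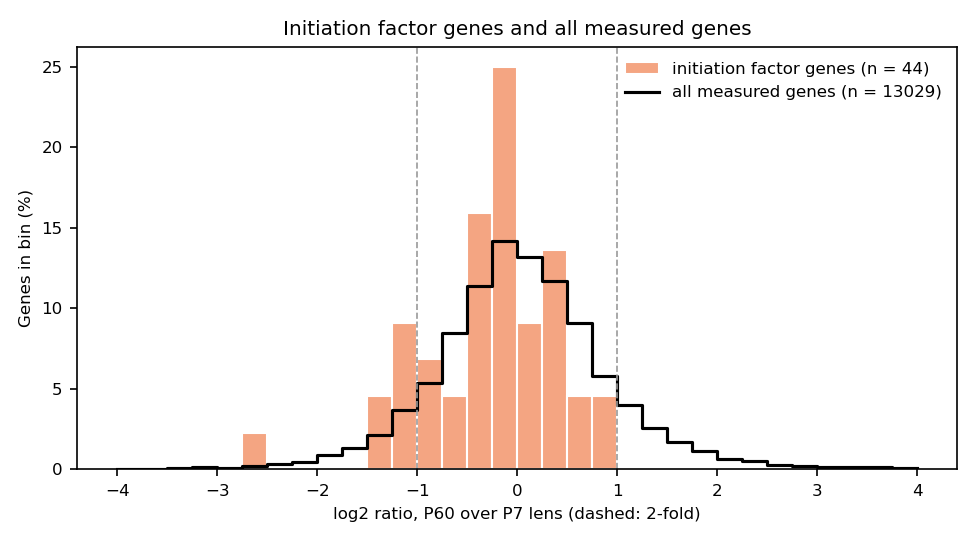
Distribution of the log2 ratio of P60 over P7 lens in bins of 0.25 (x axis) as a percentage of genes (y axis), for the 44 measured initiation factor genes (bars) and all 13029 measured genes (black line), with dashed lines at 2-fold. No bar lies beyond 2-fold on the higher side, and the bar furthest left is Eif4e at -2.52; 33 of all measured genes lie outside the range drawn.

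Promoter sequences are shown for the genes that were 2-fold lower and hold the E-box CACGTG, a site of basic helix-loop-helix factors such as MYC and the clock factors CLOCK and BMAL1. Each sequence runs 5′ to 3′ on the gene's own strand over 300 bases, from 250 bases before the annotated transcription start to 50 after it, with E-boxes in capitals. They come from RefSeq on build GRCm38.p6. The windows lie on chr3:138527018-138527317 (plus strand) for Eif4e, chr11:69672374-69672673 (minus strand) for Eif4a1, chr11:69920581-69920880 (minus strand) for Eif5a and chr3:28781027-28781326 (plus strand) for Eif5a2.
Eif4e promoter: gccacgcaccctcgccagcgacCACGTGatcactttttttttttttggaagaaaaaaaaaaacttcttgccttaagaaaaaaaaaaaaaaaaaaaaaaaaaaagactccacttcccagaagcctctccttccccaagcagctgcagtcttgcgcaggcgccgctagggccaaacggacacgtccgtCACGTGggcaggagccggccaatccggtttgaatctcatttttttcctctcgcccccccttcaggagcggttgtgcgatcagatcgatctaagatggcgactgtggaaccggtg
Eif4a1 promoter: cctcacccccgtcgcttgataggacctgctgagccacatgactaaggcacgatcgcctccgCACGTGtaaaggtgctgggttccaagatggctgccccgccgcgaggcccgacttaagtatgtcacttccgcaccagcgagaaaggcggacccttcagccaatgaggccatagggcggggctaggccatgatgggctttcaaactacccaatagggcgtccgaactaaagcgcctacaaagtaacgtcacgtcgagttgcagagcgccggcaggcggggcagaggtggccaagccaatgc
Eif5a promoter: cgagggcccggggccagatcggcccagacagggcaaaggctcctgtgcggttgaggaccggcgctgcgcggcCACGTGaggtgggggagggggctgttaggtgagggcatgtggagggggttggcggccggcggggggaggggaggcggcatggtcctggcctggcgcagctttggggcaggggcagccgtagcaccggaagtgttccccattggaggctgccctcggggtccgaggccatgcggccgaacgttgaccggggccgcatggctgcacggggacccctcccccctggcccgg
Eif5a2 promoter: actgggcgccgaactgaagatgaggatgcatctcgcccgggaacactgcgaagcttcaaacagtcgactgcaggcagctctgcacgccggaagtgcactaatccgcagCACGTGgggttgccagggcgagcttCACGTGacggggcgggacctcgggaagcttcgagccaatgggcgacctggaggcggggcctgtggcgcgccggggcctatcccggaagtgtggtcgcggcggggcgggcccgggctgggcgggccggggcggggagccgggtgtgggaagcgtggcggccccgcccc

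The E-boxes of Eif4e begin 228 and 64 bases upstream of the start, that of Eif4a1 189, that of Eif5a 178, and those of Eif5a2 142 and 117 bases upstream. Promoter windows were matched for 36 of the 45 genes. An E-box was found in 9 of these 36 genes (25%), against 2187 of 27025 genes (8.09%) with a window. Counted by window, the shares were 22.4% of 49 and 7.15% of 32851. Of the 7 lower genes, 6 had a window and 4 of these held an E-box. Of the 37 genes within 2-fold, 29 had a window and 5 held one, namely Eif1b, Eif3a, Eif3f, Eif3k and Eif4h. Among all measured genes with a window, the share holding an E-box was 10.9% of those 2-fold higher, 12.3% of those 2-fold lower and 11.3% of the others. Genes with more annotated starts have more chances of a match, and the 6 lower genes had 2 windows on average against 1.24 for the 29 others. Eif5a alone had 6 windows, of which 3 held an E-box at 2 distinct sites, and Eif4e had 2, of which 1 held both sites. The amino acid response motif TGATGNAA, searched on both strands because factors of the integrated stress response bind it, was found in 0 of the 36 genes and in 4.51% of all genes with a window. A match describes these letters and is not a measured binding site, and its part in the differences between the ages was not tested.

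The cap-binding proteins held the gene furthest from its P7 level. Eif4e, which encodes the cap-binding subunit of eIF4F, had an intensity of 1898 in P60 lens and 10885 in P7 lens on the chosen probe set, 5.74-fold lower. Its 3 other probe sets read 1136 against 3176, 246 against 835, and 137 against 427. All 4 probe sets were thus at least 2-fold lower in P60 lens, with a mean log2 ratio of -1.85 ± 0.46 (SD, 4 probe sets). Eif4e3, a cap-binding relative known to bind the cap in an atypical way, lay on the other side, at 2016 in P60 lens and 1259 in P7 lens, 1.60-fold higher. Its second probe set was 2.20-fold higher, at 2031 in P60 lens and 924 in P7 lens. Eif4e2, which encodes the cap-binding protein 4EHP known for repressing mRNAs, was 1.49-fold lower, at 1730 in P60 lens and 2586 in P7 lens. Its 5 probe sets ranged from -1.23 to 0.67 on the log2 ratio scale and fell on both sides of 0, so no direction is given for it.

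The helicase subunit of eIF4F showed a similar contrast between close relatives. Eif4a1, the main eIF4A helicase gene of growing cells, had intensities of 10467 in P60 lens and 25291 in P7 lens, 2.42-fold lower. Its other probe sets read 6605 against 21408 (3.24-fold lower) and 10841 against 18333 (1.69-fold lower). Eif4a2, its paralog, had 1 probe set, which read 13119 in P60 lens and 7949 in P7 lens, 1.65-fold higher. The log2 ratios of these paralogs, -1.27 and 0.72, lay on opposite sides of 0. The pooled SD of 0.58 describes single probe sets around the mean of their gene, and is not the spread of a difference between 2 genes. Eif4b, which stimulates the helicase, was 1.76-fold higher, at 7605 in P60 lens and 4333 in P7 lens, and its 3 probe sets ranged from 0.81 to 1.60. Eif4h, a related helper, was 1.37-fold higher, at 13081 in P60 lens and 9563 in P7 lens, with 5 probe sets from 0.39 to 1.38. For both helpers every measured probe set read higher in P60 lens.

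**Figure D2:**
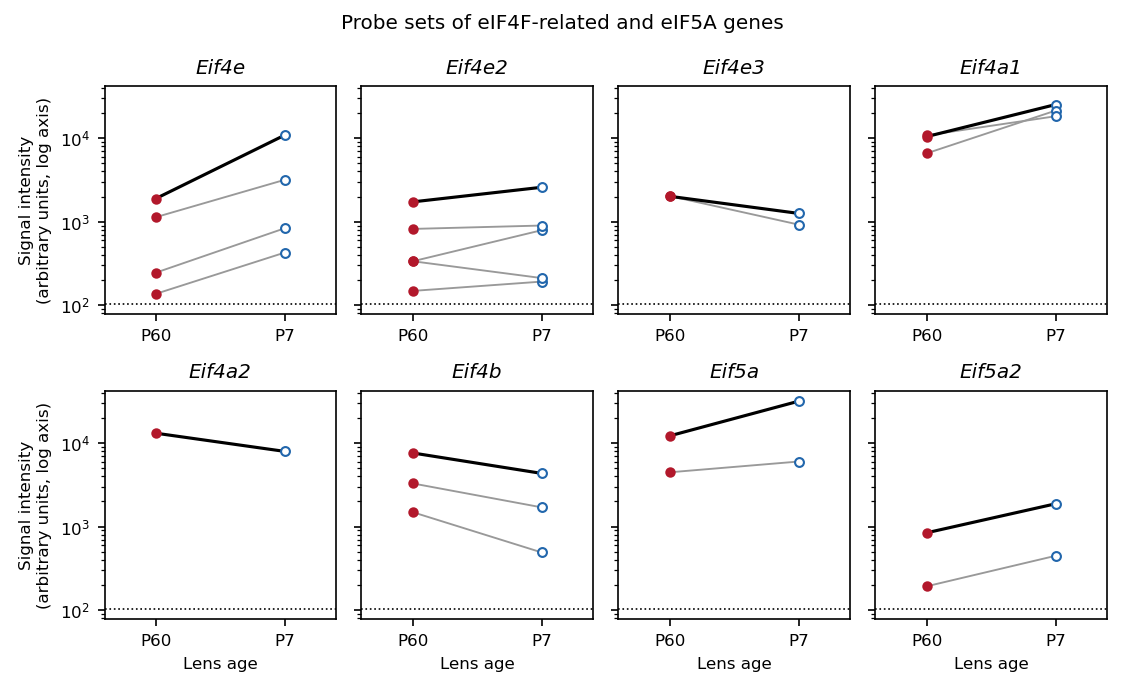
Signal intensity (y axis, log scale, arbitrary units) of every probe set above the floor in P60 lens (filled red) and P7 lens (open blue) for 8 genes of eIF4F, its helpers and eIF5A, with 1 line per probe set, the one used for the gene in black, and the floor dotted. All lines of Eif4e, Eif4a1, Eif5a and Eif5a2 are lower at P60, and all lines of Eif4e3, Eif4a2 and Eif4b are higher at P60.

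The scaffolds and the proteins that restrain eIF4E differed less. Eif4g2, a scaffold that lacks the eIF4E-binding site, read 39933 in P60 lens and 39946 in P7 lens, with a log2 ratio of 0.00 and 4 probe sets from -0.53 to 0.64. Eif4g3, a scaffold that does bind eIF4E, was 1.60-fold lower, at 2302 in P60 lens and 3678 in P7 lens, and all 3 of its probe sets read lower. Eif4ebp1, a 4E-binding protein, read 1271 in P60 lens and 1525 in P7 lens, with probe sets from -0.26 to 0.27. Eif4ebp2, the related 4E-binding protein, read 321 against 414, 1.29-fold lower, while its probe set with intensities of 190 in P60 lens and 510 in P7 lens was 2.69-fold lower. All 4 of its measured probe sets read lower in P60 lens. Eif4enif1, which carries eIF4E into the nucleus and into cytoplasmic granules, read 1680 in P60 lens and 1457 in P7 lens. The gene for the main scaffold, Eif4g1, was not analysed here.

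Among factors that act on the small subunit at the start codon, the eIF1A genes were lower on their chosen probe sets. Eif1ax read 4281 in P60 lens and 9132 in P7 lens, 2.13-fold lower, but its 2 other probe sets were 1.26-fold higher (2227 against 1769) and 1.20-fold higher (619 against 515). Its direction therefore depends on the probe set. Eif1a, a nearly identical gene, read 842 in P60 lens and 1708 in P7 lens, 2.03-fold lower, and its other probe set was 1.43-fold lower. The chosen probe set of Eif1a has the ending that marks probes shared by related transcripts, so the 2 genes' signals cannot be fully separated. Eif1ad, which encodes a protein with an eIF1A-like domain, was 1.86-fold lower on 1 probe set and 1.42-fold higher on the other. Eif1b, a relative of eIF1, read 6935 in P60 lens and 6941 in P7 lens. The gene Eif1 itself was not analysed here.

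Of the factors that deliver the initiator tRNA, Eif2s2, the beta subunit of eIF2, read 13225 in P60 lens and 27912 in P7 lens, 2.11-fold lower. Of its 5 measured probe sets 4 were lower, from -1.35 to -0.49 on the log2 ratio scale, and the fifth was higher, at 3490 in P60 lens against 2085 in P7 lens (0.74). Eif2a and Eif2d, which can deliver tRNA without eIF2, had log2 ratios of -0.13 and -0.06. The gene for the alpha subunit of eIF2, Eif2s1, was not analysed here. The 5 subunits of the exchange factor eIF2B had ratios below 0 throughout, from -0.48 for Eif2b2 to -0.15 for Eif2b4, with a median of -0.28. None of them was 2-fold different, and Eif2b2 had 2 other probe sets above 0.

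The 4 eIF2 alpha kinases stayed within 2-fold. Eif2ak3, the endoplasmic reticulum stress sensor PERK, read 445 in P60 lens and 321 in P7 lens, 1.39-fold higher. Eif2ak1, the haem-regulated kinase, read 735 against 578, 1.27-fold higher, although another of its probe sets was 2.30-fold lower (185 in P60 lens and 424 in P7 lens). Markers of red blood cells, in which this kinase is known to be abundant, were near or under the floor: 2 of 6 exceeded it in P7 lens and 0 of 6 in P60 lens. Eif2ak4, the amino acid sensor GCN2, read 313 in P60 lens and 252 in P7 lens, and its other probe set also read higher. Eif2ak2, the double-stranded RNA sensor PKR and an interferon-induced gene, read 205 in P60 lens and 387 in P7 lens, 1.89-fold lower. Its other measured probe set read 138 in P60 lens and was under the floor in P7 lens. Of 11 measured interferon-induced genes 6 were at least 2-fold higher and 1 was at least 2-fold lower in P60 lens (median 1.04). The shares over all measured genes were 11.5% and 9.44%. Among the 6, Ifit2, Ifit3, Oas1a, Oas2 and Gbp2 were under the floor in P7 lens, so their ratios are bounds. The lower gene, Rsad2, read 114 in P60 lens and 2694 in P7 lens, 23.6-fold lower.

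The 11 analysed subunits of eIF3, the largest initiation factor, were all within 2-fold on their chosen probe sets. Their ratios were above 0 for 5 and below for 6, with a median of -0.07. Eif3g was not analysed here, and the j subunit genes, which share their probe sets, entered no count and are given under other observations. Eif3b, a core scaffold subunit, stood highest at 5505 in P60 lens and 2977 in P7 lens, 1.85-fold higher, on its only probe set. Eif3f read 31712 against 24288 and Eif3h 14360 against 11920, which is 1.31-fold and 1.20-fold higher. Eif3i, another core subunit, stood lowest at 11984 in P60 lens and 22454 in P7 lens, 1.87-fold lower, and its second probe set was 1.74-fold lower. Eif3e was 1.24-fold lower, and all 3 of its probe sets read lower. Eif3d, Eif3k, Eif3l and Eif3m had ratios from -0.24 to -0.07. The other probe sets of Eif3l (up to 0.64) and Eif3m (0.49) were above 0, so the direction of these 2 genes depends on the probe set. Eif3a and Eif3c, the largest subunits, had ratios of 0.12 and 0.09 on the chosen probe sets. Their other probe sets all read lower in P60 lens, down to -1.72 for Eif3a (407 against 1343) and -1.47 for Eif3c (2252 against 6259).

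**Figure D3:**
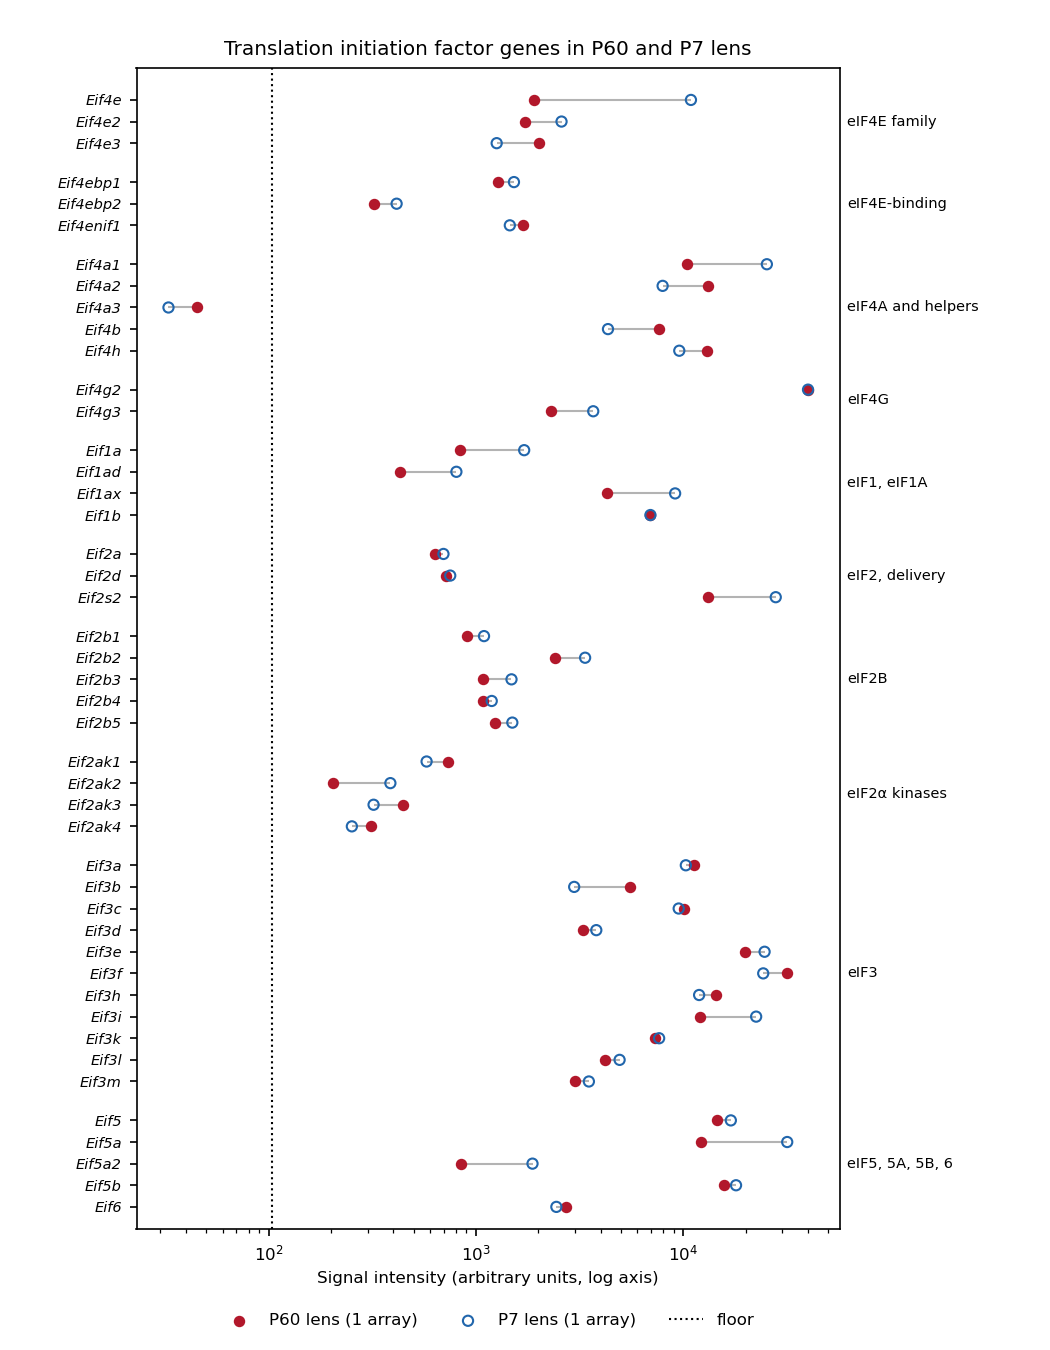
Signal intensity (x axis, log scale, arbitrary units) of the 45 initiation factor genes in P60 lens (filled red) and P7 lens (open blue), 1 array each, on the probe set used for the gene, ordered by role, with the floor dotted. The longest line is that of Eif4e, at 1898 in P60 lens and 10885 in P7 lens, and Eif4a3 lies under the floor.

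Factors of subunit joining and later steps held further low genes. Eif5a, which encodes a factor that helps ribosomes through difficult peptide bonds and carries the amino acid hypusine, read 12212 in P60 lens and 31705 in P7 lens, 2.60-fold lower. Its other probe set was 1.35-fold lower, at 4468 in P60 lens and 6009 in P7 lens. Both probe sets have endings that mark possible cross-reaction. Eif5a2, its paralog, read 843 in P60 lens and 1874 in P7 lens, 2.22-fold lower, and its second probe set was 2.31-fold lower. Unlike the eIF4A pair, these paralogs therefore lay on the same side. Eif6, which keeps ribosomal subunits apart, read 2722 against 2442, with both probe sets slightly above 0.

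Eif5, the GTPase-activating protein of eIF2, and Eif5b, the GTPase of subunit joining, depended strongly on the probe set. On its chosen probe set Eif5 read 14537 in P60 lens and 16952 in P7 lens, 1.17-fold lower, whereas another read 6048 against 19630, 3.25-fold lower. All 5 probe sets of Eif5 read lower, with a mean log2 ratio of -0.99 ± 0.63 (SD, 5 probe sets). Eif5b read 15664 in P60 lens and 17960 in P7 lens on its chosen probe set, and its other probe sets read 10487 against 20720 and 750 against 5150, the last of these 6.87-fold lower. Each of these genes is counted as within 2-fold, since the brightest probe set decides.

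**Figure D4:**
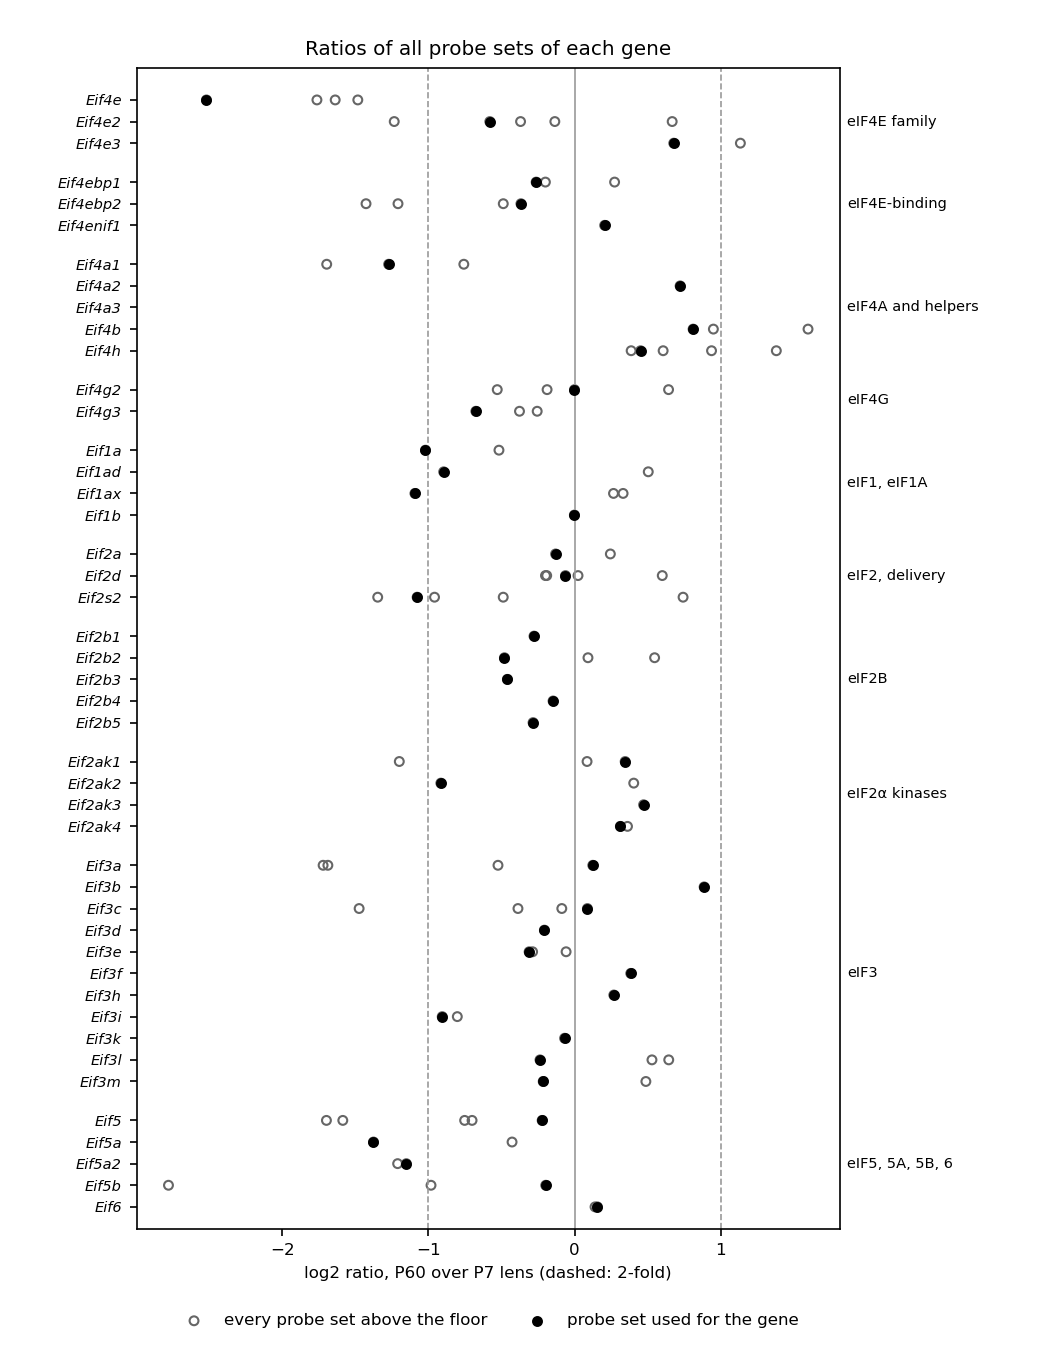
Log2 ratio of P60 over P7 lens (x axis) for every probe set above the floor (open circles) and for the probe set used for each gene (filled), by gene and role, with dashed lines at 2-fold. The 4 probe sets of Eif4e lie left of -1, whereas those of Eif5b spread from -2.78 to -0.20.

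Over all 110 measured probe sets of these genes, 23 (20.9%) were at least 2-fold lower and 3 (2.73%) at least 2-fold higher in P60 lens. Over all 22462 measured probe sets with 1 gene symbol these shares were 10.6% and 9.89%, and 52.4% of them had a ratio below 0. Of the 31 genes with at least 2 measured probe sets, 11 had all of them below 0, 5 had all above 0 and 15 had probe sets on both sides, which is 35.5%, 16.1% and 48.4%. Of all 5624 genes with at least 2 measured probe sets these shares were 29.6%, 24.4% and 46.0%. The 11 include Eif4e, Eif4a1, Eif5a, Eif5a2 and Eif1a among the 7 lower genes, and not Eif1ax and Eif2s2. The 5 with all above 0 were Eif4b, Eif4h, Eif4e3, Eif2ak4 and Eif6. The ratio of 5′ to 3′ signal of control transcripts, which drops when RNA or cDNA is less complete, was lower in P60 lens for 9 of 10 control pairs, added spike-in RNA included. These pairs are not 10 separate transcripts, since the spike-ins dap, lys, phe and thr each had a further pair. The pairs of lys went opposite ways. Of the lens transcripts, beta-actin had ratios of 0.61 in P60 lens and 0.79 in P7 lens, and Gapdh 1.29 and 1.39. Where each probe set lies along its transcript was not used here, and the part of the control differences in the lower ratios was not tested.

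Tissue markers were read beside these counts. All 11 of the named lens fibre and epithelial markers exceeded the floor on both arrays, with 7 ratios below 0 and 4 above. The epithelial regulator Foxe3 was 2.61-fold lower, at 110 in P60 lens, close to the floor, and 288 in P7 lens. The other 10 lay within 2-fold, among them the regulator Pax6, 1.51-fold higher at 8581 in P60 lens and 5692 in P7 lens. The 5 probe sets of Pax6 ran from -0.78 to 0.59. Of 12 vascular endothelial markers, 3 exceeded the floor in P60 lens and 9 in P7 lens, with summed intensities of 1140 and 4408, and 6 of the 10 measured were at least 2-fold lower in P60 lens. Of 8 measured photoreceptor and retinal markers 3 were at least 2-fold lower and 1, Gnat1, at least 2-fold higher, with 7 and 6 of the 8 above the floor in P60 and P7 lens and summed intensities of 2244 and 3246. Of 6 pigment cell markers 2 were lower and 1, Oca2, was 8.62-fold higher, with 4 and 6 above the floor. Their sums were 3425 and 2252, of which Oca2 made up 2502 and 290, and 5 of the 6 ratios were below 0. Of 5 measured corneal markers Aldh3a1 was at least 179-fold higher and the others lay within 2-fold, with 4 and 3 above the floor. Sums over all 6 corneal genes on the array were 19165 and 651, of which Aldh3a1 made up 18639 and 63. The corneal gene too dim to count as measured, Krt12, read 5.8 in P60 lens and 13.1 in P7 lens. Of 7 measured leukocyte markers 1 was higher and 1 lower, and of 4 measured muscle markers 1 was higher. The part of such cells in the initiation factor values was not tested. In pooled tissue, fewer cells of a type and less RNA per cell cannot be told apart.

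The rest of the translation pathway was read with the same rule. Of 8 measured elongation factor genes 2 were at least 2-fold higher and 1 lower (median 0.31). Eef2, which moves the ribosome along the mRNA, read 31905 in P60 lens and 14150 in P7 lens, 2.25-fold higher, and Eef1a2, the muscle and nerve form of the tRNA carrier, read 1012 against 287, 3.53-fold higher. Eef1e1, a partner of tRNA synthetases, read 740 in P60 lens and 2708 in P7 lens, 3.66-fold lower, whereas the common tRNA carrier gene Eef1a1 read 54404 against 52960. Among 8 genes of termination and recycling (median -0.26), the ribosome rescue partners Hbs1l and Pelo were 3.16-fold and 2.23-fold lower, and the release factor gene Gspt2 was 2.83-fold higher on 1 probe set and 1.09-fold on the other. All 13 other initiation proteins lay within 2-fold on their chosen probe sets (median -0.13), from -0.59 for the nuclear cap-binding gene Ncbp1 to 0.97 for Larp1, which holds mRNAs of the translation machinery. Other probe sets of Pabpc1 (-2.69) and Larp4 (-2.35), which bind mRNAs with poly(A) tails, were far lower, and with the dimmest or the mean probe set 2 genes of the list were 2-fold lower and its median was -0.29. Of 41 measured cytosolic ribosomal protein genes 0 were 2-fold higher and 4 (9.76%, close to the 9.44% of all measured genes) were lower, namely Rps25 (-1.94), Rpl39 (-1.31), Rpl14 (-1.09) and Rpl12 (-1.06, under the floor in P60 lens), with a median of -0.12 and a highest ratio of 0.35 for Rps27. The lower count ran from 3 to 8 and this median from -0.36 to -0.098 over the alternative settings. The 4 lower genes were read on dim probe sets. Rps25 read 610 in P60 lens and 2344 in P7 lens, Rpl39 453 against 1123, Rpl14 564 against 1199 and Rpl12 33 against 217. Rps27 was dim too, at 542 against 425, whereas Rpl38, the brightest of the list, read 72227 against 63538.

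Signalling to initiation went both ways. Of 12 measured genes of the mTORC1 and MNK list, Mtor, the kinase itself, read 6810 in P60 lens and 2128 in P7 lens, 3.20-fold higher, with its other probe set at 0.13. Tsc2, which restrains mTORC1, was 3.46-fold lower (939 against 3248), and the S6 kinase gene Rps6kb2 was at least 5.10-fold lower, since it was under the floor in P60 lens. The median of this list was 0.17 and its mean -0.0016, so these differ in sign. Over the alternative settings the median ran from 0.0041 to 0.46, the higher count from 0 to 2 and the lower count from 0 to 3, so no direction is given for the list. In the list of stress response targets and phosphatases 9 of 11 ratios were below 0 (median -0.39). Atf4, the transcription factor translated when eIF2 is phosphorylated, read 3931 in P60 lens and 9530 in P7 lens, 2.42-fold lower, and Atf5, its relative, was 2.14-fold lower. Chac1 and Ddit3, targets of ATF4, had ratios of 0.87 and 0.82, above 0 on 1 probe set each. The 7 measured mitochondrial translation factors were all within 2-fold (median -0.26), from -0.77 for the mitochondrial initiation factor gene Mtif2 to 0.05 for Tufm, whose 3 probe sets fell on both sides of 0.

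**Figure D5:**
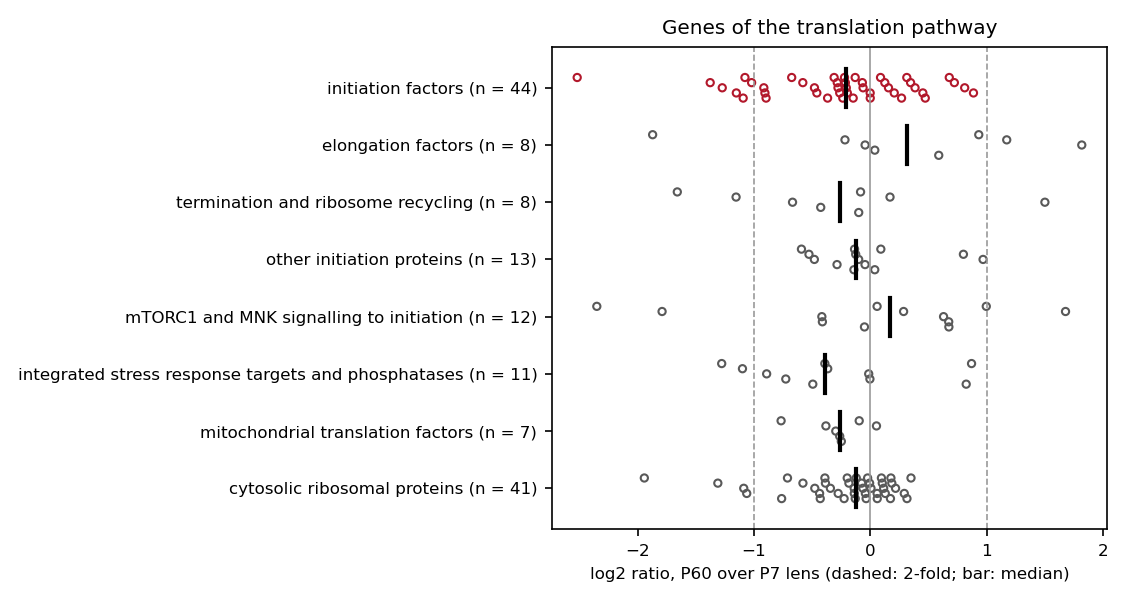
Log2 ratio of P60 over P7 lens (x axis) for each measured gene (circles) of the initiation factors (red) and of 7 further lists of the translation pathway, with the median of each list as a bar and dashed lines at 2-fold. The initiation factors run from -2.52 to 0.89 around a median of -0.21, and the cytosolic ribosomal proteins from -1.94 to 0.35 around a median of -0.12.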

How the data were processed

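Total RNA from pooled lenses of each age was DNase-treated, extracted on spin columns and labelled with biotin, per the labels' protocols. The authors deposited 1 linear signal intensity per probe set and array, made with MAS5 per the submitters' processing notes. Its version and settings, the build and the present calls were not given in the sources used here. MAS5 scales each array to a common trimmed mean, and the mean without the lowest and highest 2% was 500.0 on both arrays.

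Of 45101 probe sets, 34958 had 1 gene symbol in the platform annotation, 932 several and 9211 none. Gene numbers linked 34754 of these to a current mouse symbol, and the others kept the annotated one. Probe sets with several symbols or none named no gene. Lower values were set to the floor, and log2 ratios of P60 over P7 were then taken, in Python 3.11.15 with pandas 2.3.3. A gene was called higher or lower from 2-fold on. With 1 array per age there is no test, and the number of arrays limits the precision. The calculation was tested on simulated data with planted changes larger than 2-fold and noise smaller than the spread between probe sets. That tests the arithmetic and not the calls near 2-fold. Alternatives changed the floor, a pseudocount in its place, the filter, the probe set and the scaling.

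The initiation factor genes, the lists, the motifs and the rules were chosen with earlier results of these data known. All measured initiation factor genes are described, of the pathway lists the genes at 2-fold and the highest and lowest.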

Additional observations from a re-analysis of the deposited data

How the results depend on the processing

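Of 11 alternative settings, all of which were run, those for the floor, the pseudocount, the filter and the scaling gave 6 or 7 genes at least 2-fold lower, 0 at least 2-fold higher and a median between -0.26 and -0.20. In these settings 13.6% to 15.9% of the initiation factor genes were lower, against 6.76% to 14.1% of all genes. The choice of probe set moved the values of the initiation factor genes. With the dimmest probe set of each gene 9 genes (20.5%) were lower and 2 higher (Eif4b and Eif4e3), and the median was -0.035. Of all genes 10.4% were then lower and 9.16% higher. The median of all genes was -0.065 in this setting, so that of the initiation factor genes was not the lower one. With the mean of the probe sets 4 (9.09%) were lower (Eif4a1, Eif4e, Eif5a2 and Eif5b) and 1 higher (Eif4b). Of all genes 8.23% were then lower and 8.94% higher, and the medians were -0.18 for the initiation factor genes and -0.022 for all genes. Without probe sets with the endings _s_at, _x_at or _a_at 35 genes were left, 4 of them (11.4%) lower (Eif2s2, Eif4a1, Eif4e and Eif5a2) and 1 higher (Eif4h). Of all genes 9.44% were then lower and 11.0% higher, and the medians were -0.19 for the initiation factor genes and 0.0072 for all genes. Eif4e, Eif4a1 and Eif5a2 were at least 2-fold lower under all 11 settings. The ratio of Eif1ax turned to 0.27 with its dimmest probe set and to 0.33 without those endings. Of 475 values of single genes over the settings, 24, in 14 of the 44 genes, had another sign than the reported value. Of these 23 came from the choice of probe set and 1, in Eif1b with quantile normalization, from the scaling. Eif1ax was the only one of the 14 that the report gives as 2-fold lower. A move of at least the SD between probe sets, leaving out the sign changes of Eif1ax, was found for 25 values. Some of these lost or gained the 2-fold call. With the dimmest probe set Eif5a moved to -0.43 and Eif3a to -1.72. Of 231 list values 27 moved. The cause was not tested. No paired analysis was possible because each age has 1 array. Signals near the floor limit Eif2ak2, Eif2ak4, Eif4ebp2 and Eif4a3.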

Other observations

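Some probe sets of initiation factor genes name several genes or belong to a sex-linked gene and entered no count above. Eif3j1 and Eif3j2, which encode the loosely bound j subunit of eIF3, share 3 probe sets. These read 3916 in P60 lens and 7573 in P7 lens, 1748 against 3949, and 1004 against 1594, with log2 ratios of -0.95, -1.18 and -0.67, so that every one was lower in P60 lens. Eif2s3x, the X-linked gamma subunit of eIF2, read 6530 in P60 lens and 8118 in P7 lens, 6187 against 7160, and 116 against 400, with log2 ratios of -0.31, -0.21 and -1.79. The probe set shared by Eif4ebp3, a 4E-binding protein, and its neighbour Ankhd1 read 637 in P60 lens and 584 in P7 lens (0.13).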
